A study of Mus musculus with 6 samples.

Results

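Heat shock chaperones were described through 10 genes given by name, Hspa1a, Hspa1b, Hspa8, Hspa5, Hsp90aa1, Hsp90ab1, Hsph1, Dnajb1, Hspd1 and Hspe1, and all 10 were found by symbol among the 26027 genes of the count table. RNA came from Lin-/cKit+/eYFP+ cells, early blood progenitors sorted from the bone marrow of C57BL/6 mice after tamoxifen. Cells of Srsf2 P95H/+ mice, in which 1 allele of the splicing factor gene Srsf2 carries the P95H change, gave 3 libraries, and cells of Srsf2 +/+ mice, called WT here, gave another 3. Mice of both groups carried hScl-CreERT, a tamoxifen-inducible Cre under control sequences of the Scl gene, and R26eYFP, a reporter that marks cells in which Cre has acted. P95H/+ replicates 1 and 2 were female and replicate 3 was male, all at 32 weeks of age. WT replicate 1 was a female of 54 weeks, and WT replicates 2 and 3 were males of 32 weeks. The labels do not say that each library is a separate mouse. Where libraries share one, a p-value reflects only how much these libraries vary, which may be technical.

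Heat shock proteins are chaperones that bind unfolded polypeptides and help them fold. The Hsp70 proteins work in cycles of ATP binding that are started by J-domain partners and reset by nucleotide exchange factors, and many of their clients pass on to Hsp90. Under heat or other proteotoxic stress, heat shock factor 1 (Hsf1) binds repeated GAA units, the heat shock elements, in the promoters of the inducible members, while related chaperones are made at all times in most cells. In the endoplasmic reticulum (ER) and in mitochondria, dedicated chaperones answer to separate stress pathways. Transcripts of inducible Hsp70 and of immediate early genes are also known to respond to the handling of cells before RNA is taken.

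Srsf2 itself averaged 331 ± 14.2 CPM (counts per total of the library, scaled equally in all) in P95H/+ and 332.5 ± 9.79 CPM in WT (SD, n = 3 each), which does not show the base change. Library totals lay between 10747941 and 22614408 counts in P95H/+ and between 16842751 and 23010510 counts in WT, and the lowest count of any chaperone was 382. Replicate 3 of both genotypes stood apart. A principal component analysis used log2 CPM after TMM scaling, over the genes that passed the filter on low counts. Its leading component (61.6% of the variance) put the replicate 3 libraries at 81.8 (P95H/+) and 48.7 (WT) and the other 4 between -36.1 and -24.3. In the replicate 3 libraries, transcripts with at most 40% GC were lower by a median log2 difference of -1.20 (P95H/+) and -0.83 (WT) against the mean of the other 4 libraries. The stem and progenitor receptor gene Kit, on which the cells were sorted, was at 476 to 548 CPM in P95H/+ and 482 to 532 CPM in WT. Other progenitor markers varied more. Flt3 stood at 82.45, 109 and 98.8 CPM in P95H/+ replicates 1, 2 and 3, against 137, 165 and 93.6 CPM in WT. Gata2 ranged from 112 to 281 CPM in P95H/+ and from 178 to 207.5 CPM in WT. The genotypes overlapped for both, as for Cd34, Myb, Spi1 and Mpo. Summed over 5 T and NK cell markers the level was 1.64 to 2.51 CPM in P95H/+ and 2.85 to 7.95 CPM in WT, and 2 of the 5 (Cd3e and Cd3g) stayed under 1 CPM in every library. Over 5 macrophage markers it was 34.1 to 41.3 CPM in P95H/+ and 45.5 to 50.8 CPM in WT. This rested on Cd163 (20.7 to 28.9 CPM in P95H/+, 30.4 to 35.6 CPM in WT) and Adgre1 (9.025 to 10.08 and 11.85 to 13.52 CPM). C1qa, C1qb and C1qc lay between 0.4265 and 1.523 CPM and overlapped between genotypes. B cell, erythroblast, neutrophil and stroma marker sums overlapped between genotypes, and no marker was at 0 in all libraries. Within the stroma sum, Col1a2 was at 5.54 to 9.33 CPM in P95H/+ and 0.891 to 3.69 CPM in WT. Col1a1, Cxcl12 and Pdgfrb overlapped. The part of these other cells in the results below was not tested, and in bulk RNA fewer cells of a type cannot be told apart from less RNA per cell.

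In replicates 1 and 2, 4 stress-inducible cytosolic genes, Hspa1a, Hspa1b, Dnajb1 and Hsph1, were lower in P95H/+ than in WT progenitors. The other 6 chaperones lay close together there, among them Hsp90aa1, the more stress-responsive of the cytosolic Hsp90 genes. Replicate 3 did not repeat the difference of the first 4 genes, apart from Dnajb1. With all 6 libraries, 0 of 10 chaperones passed edgeR's quasi-likelihood test at an adjusted p of 0.05, as did 0% of the 17144 genes tested. At an unadjusted p under 0.05 there was 1 of 10, Dnajb1, which was lower in P95H/+, against 2.11% of all genes in either direction and 1.41% on the lower side. DESeq2, limma voom and edgeR with the replicate number as a block also called 0 of the 10, with 0.0467%, 0% and 0.00583% of all genes called. The log2 fold change (P95H/+ over WT) was below 0 for 9 of 10 chaperones, against 46.9% of all genes, with a median of -0.16 for the chaperones and 0.02 for all genes. Without P95H/+ replicate 3 it was below 0 for 5 of 10 (all genes 50.5%) and the median turned to 0.03. With WT replicate 2 left out 5 of 10 were below 0 (all genes 45.6%). Leaving out WT replicate 1 gave 6 of 10 (all genes 45%), and a GC correction also gave 6 of 10 (all genes 33.8%). Leaving out WT replicate 3 gave 10 of 10 (all genes 52.8%). Leaving out P95H/+ replicate 1 or 2 gave 9 of 10 each time (all genes 52.2% and 51.5%).

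In the comparison of replicates 1 and 2 alone, 2 P95H/+ against 2 WT libraries, 2 of 10 chaperones passed the same test, Dnajb1 and Hsph1, both lower in P95H/+. There 0.829% of 17371 genes passed in either direction and 0.645% were called lower. This comparison was chosen because the replicate 3 libraries stand apart, with results of these data known. Both P95H/+ libraries in it came from females of 32 weeks, and the WT libraries from a female of 54 weeks and a male of 32 weeks. No WT library there matched P95H/+ in both sex and age, so genotype cannot be told apart from these. The log2 fold change was below 0 for 6 of 10 chaperones, near the 50.4% of all genes, with a median of -0.11 over the chaperones and -0.00293 over all genes.

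**Figure D1:**
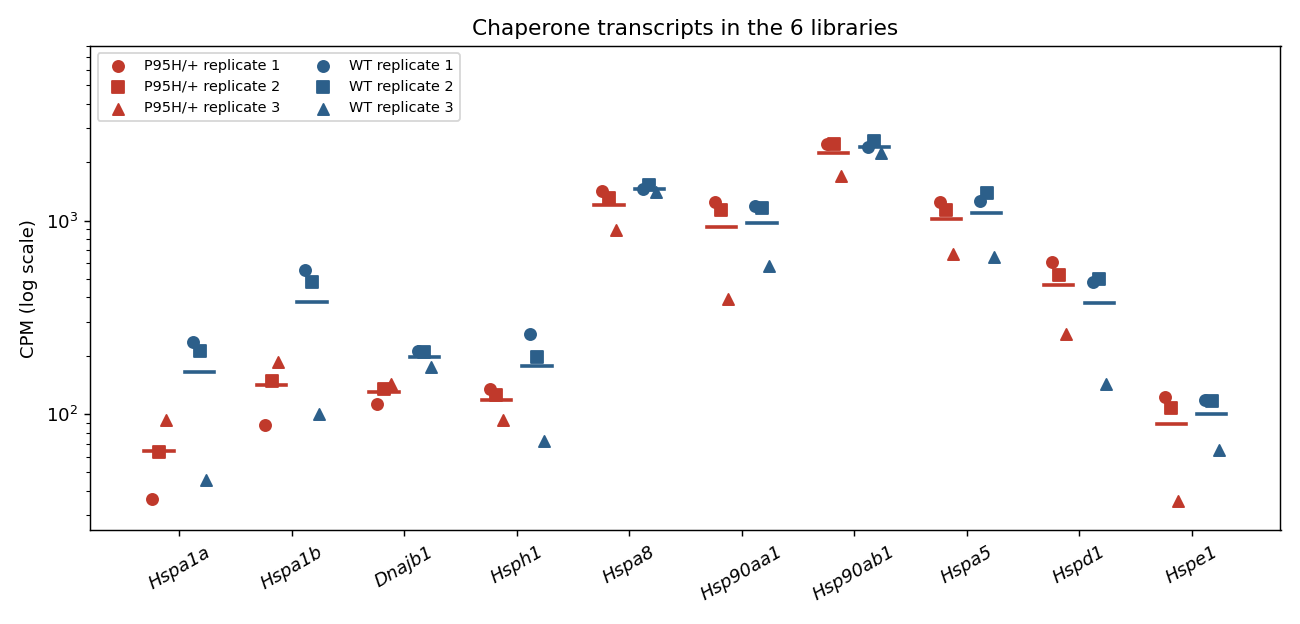
CPM of the 10 chaperone genes in each library on a log axis, with P95H/+ libraries (red) left of WT libraries (blue), a marker for each replicate and a bar at the mean of 3 libraries. WT replicates 1 and 2 stand above the other 4 libraries for Hspa1a, Hspa1b, Dnajb1 and Hsph1, and replicate 3 (triangles) is the lowest library of its genotype for each of the other 6 genes.

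Hspa1a and Hspa1b encode the main stress-inducible cytosolic Hsp70. On mm10, Hspa1a (ENSMUSG00000091971) lies on chromosome 17 at 34969190 to 34972156 and Hspa1b (ENSMUSG00000090877) at 34956436 to 34959238, both on the minus strand, each with 1 annotated exon. Their longest open reading frames share 1918 of 1929 aligned bases (99.4%), so reads could be split between the genes or dropped from both, and each value is uncertain on its own. Gm20481, on the plus strand, overlaps Hspa1a. The RefSeq sequences of the 250 bases before the start sites (GRCm38.p6, the assembly of mm10) are shown because the pair moved together: they share 247 of 250 bases. The Hspa1a window is chr17:34972157-34972406 and the Hspa1b window chr17:34959239-34959488, both given on the minus strand, with capitals on a pair of facing heat shock units (GAANNTTC).
Hspa1a: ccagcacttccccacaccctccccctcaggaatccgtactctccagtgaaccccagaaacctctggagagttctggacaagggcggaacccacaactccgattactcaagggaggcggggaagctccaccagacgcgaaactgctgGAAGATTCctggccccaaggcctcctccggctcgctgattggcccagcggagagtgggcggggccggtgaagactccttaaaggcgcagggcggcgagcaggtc
Hspa1b: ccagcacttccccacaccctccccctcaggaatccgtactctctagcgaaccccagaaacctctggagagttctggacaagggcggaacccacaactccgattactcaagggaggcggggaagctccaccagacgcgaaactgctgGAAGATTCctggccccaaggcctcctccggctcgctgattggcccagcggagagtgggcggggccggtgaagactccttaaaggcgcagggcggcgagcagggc
GAANNTTC reads the same on both strands and occurs in 6.69% of the 32851 RefSeq windows of this length. A match describes these letters and is no evidence that a factor binds there.

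Hspa1a stood at 36.45, 63.5 and 92.9 CPM in P95H/+ replicates 1, 2 and 3, against 236, 211 and 45.2 CPM in WT replicates 1, 2 and 3. Hspa1b stood at 87.4, 148 and 186 CPM in P95H/+, against 556, 481 and 99.6 CPM in WT. For both genes WT replicates 1 and 2 were above every P95H/+ library, while WT replicate 3 lay below P95H/+ replicates 2 and 3, so that the groups overlapped. Means were 64.3 ± 28.3 CPM in P95H/+ and 164 ± 104 CPM in WT for Hspa1a, and 140.4 ± 49.7 CPM in P95H/+ and 379 ± 245 CPM in WT for Hspa1b (SD, n = 3 each).

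The log2 fold changes with 6 libraries were -1.28 (SE 0.62) for Hspa1a and -1.36 (SE 0.61) for Hspa1b, each with an adjusted p of 1. Only 1.1% of all genes had a log2 fold change of -1 or lower. In replicates 1 and 2 the P95H/+ mean was 0.224 times the WT mean for Hspa1a and 0.227 times for Hspa1b. These log2 fold changes, -2.13 (SE 0.31) and -2.11 (SE 0.30), were the lowest of the 10, yet neither passed the test, with adjusted p of 0.127 and 0.125. When the reads of both genes were summed, the values were -1.34 (adjusted p 1) with 6 libraries and -2.12 (adjusted p 0.128) with replicates 1 and 2. In the replicate 3 libraries the log2 ratio of P95H/+ over WT was 1.04 for Hspa1a and 0.90 for Hspa1b, the other way round.

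Hspa1b exceeded Hspa1a by a steady factor of 2.00 to 2.40 in P95H/+ and 2.20 to 2.36 in WT. The pair made up 1.65%, 2.96% and 6.25% of the summed CPM of the 10 chaperones in P95H/+ replicates 1, 2 and 3, against 9.71%, 8.29% and 2.65% in WT. The summed level itself was 7511, 7144 and 4467 CPM in P95H/+ and 8162, 8345 and 5477 CPM in WT, so it differed more between replicate 3 and the others than between the genotypes.

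Dnajb1, the inducible Hsp40 J-domain protein that delivers clients to Hsp70, lies on chromosome 8 at 83608193 to 83612653 (ENSMUSG00000005483, plus strand). It stood at 113, 134 and 142 CPM in P95H/+, against 210.1, 209 and 174 CPM in WT. Every P95H/+ library was below every WT library, which held for 1 of 10 chaperones and for 5.93% of all genes. The opposite, every P95H/+ library above every WT library, held for 0 of 10 and for 1.91% of all genes. Its means were 130 ± 15 CPM in P95H/+ and 198 ± 20.8 CPM in WT (SD, n = 3 each). Across the 6 libraries its log2 fold change came to -0.53 (SE 0.20), with an unadjusted p of 0.0301 (adjusted p 1). In replicates 1 and 2 it was -0.74 (SE 0.09), and Dnajb1 fell in P95H/+ with an adjusted p of 0.0069. The log2 ratio by replicate number was -0.89, -0.65 and -0.29, below 0 each time, which follows from the groups not overlapping.

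Hsph1, an Hsp110 protein that acts as a nucleotide exchange factor for Hsp70, lies on chromosome 5 at 149614287 to 149636376 (ENSMUSG00000029657, minus strand). It stood at 134, 125 and 93.3 CPM in P95H/+, against 260 (WT replicate 1), 197 (replicate 2) and 72.2 CPM (replicate 3) in WT. WT replicates 1 and 2 were above all P95H/+ libraries and WT replicate 3 was the lowest of the 6, so that the groups overlapped. Across the 6 libraries its log2 fold change came to -0.52 (SE 0.44, adjusted p 1), which was -0.14 without WT replicate 1 and -0.90 without WT replicate 3. In replicates 1 and 2 Hsph1 fell in P95H/+ by 0.79 on the log2 scale (SE 0.13, adjusted p 0.0452). From 33 to 26 bases before its RefSeq start site, inside the annotated span of Hsph1 itself, lies a pair of heat shock units. They face away from each other (TTCNNGAA, found in 7.17% of windows and the same on both strands). The pair is shown in capitals, on the minus strand of chr5:149636351-149636380, because Hsph1 was one of the called genes.
Hsph1: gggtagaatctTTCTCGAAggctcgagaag

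The 4-library comparison was refitted with 1 library left out at a time, a check added after the data were seen. With any 1 of these 4 libraries left out, the log2 fold change of Dnajb1 lay between -0.84 and -0.64. That of Hsph1 lay between -0.96 and -0.59. Hspa1a ranged from -2.56 to -1.80 and Hspa1b from -2.51 to -1.80. In each of these fits 1 group had a single library, which is taken to vary like the other group, so no calls are given.

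**Figure D2:**
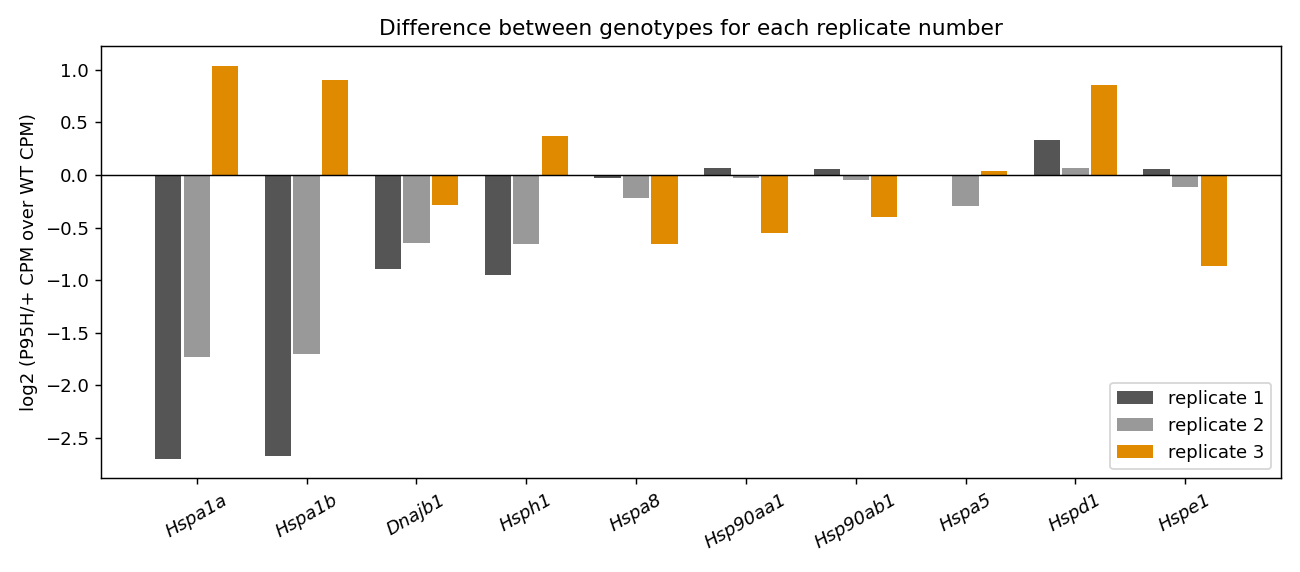
The log2 ratio of P95H/+ CPM over WT CPM for each of the 10 chaperones, as bars for replicate numbers 1 (dark grey), 2 (light grey) and 3 (orange). Bars for numbers 1 and 2 lie well below 0 for Hspa1a, Hspa1b, Dnajb1 and Hsph1, while the bar for number 3 is above 0 for all of these but Dnajb1.

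Hspa8 (ENSMUSG00000015656, chromosome 9, 40800984 to 40810087) encodes the constitutive cytosolic Hsp70. It stood at 1423, 1306 and 893 CPM in P95H/+, against 1456, 1519 and 1408 CPM in WT. P95H/+ replicate 3 was low and the other 5 libraries lay within a narrow range. The log2 fold change was -0.21 (SE 0.22) with 6 libraries and -0.09 (SE 0.10) with replicates 1 and 2, with adjusted p of 1 and 0.718. Hspa8 also hosts the small nucleolar RNA genes Snord14c, Snord14d and Snord14e on its own strand.

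Hsp90aa1 (ENSMUSG00000021270, chromosome 12, 110690605 to 110702728), the more stress-responsive of the cytosolic Hsp90 genes, stood at 1245, 1131 and 394 CPM in P95H/+, against 1192, 1158 and 580 CPM in WT. Both replicate 3 libraries were low, and replicates 1 and 2 of the genotypes overlapped. Its log2 fold change was -0.02 (SE 0.46) with 6 libraries and 0.05 (SE 0.10) with replicates 1 and 2. The sign also turned to 0.0027 with the size factors of DESeq2 as the scaling. Hsp90ab1 (ENSMUSG00000023944, chromosome 17, 45567775 to 45573271), the constitutive Hsp90, stood at 2498, 2477 and 1703 CPM in P95H/+, against 2398, 2565 and 2242 CPM in WT. It varied least of the 10, with a highest library 1.51 times its lowest. The log2 fold changes were -0.04 (SE 0.21) and, in replicates 1 and 2, 0.03 (SE 0.11).

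Hspa5 (ENSMUSG00000026864, chromosome 2, 34771970 to 34777547) encodes BiP, the Hsp70 of the ER and a target of the unfolded protein response. It stood at 1245, 1131 and 668 CPM in P95H/+, against 1256, 1390 and 649.7 CPM in WT. Replicate 3 was low in both genotypes by similar amounts, at 0.563 times the mean of replicates 1 and 2 in P95H/+ and 0.491 times in WT. The log2 fold change was -0.05 (SE 0.35) with 6 libraries and -0.12 (SE 0.11) with replicates 1 and 2, with adjusted p of 1 and 0.636. The Hspa5 window held an ER stress response element (CCAAT and CCACG with 9 bases between them, searched on both strands), the binding motif of Atf6 together with NF-Y, which was present in 0.113% of windows. It lies before the RefSeq start site but inside the annotated span of Hspa5. CCAAT, which is part of this element by definition, was present in 33.8% of windows. The element is shown in capitals on the plus strand of chr2:34772020-34772048.
Hspa5: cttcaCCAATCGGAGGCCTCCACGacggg
It is printed as the element of another stress pathway, for a chaperone whose log2 ratio by replicate number was -0.01, -0.30 and 0.04.

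Hspd1 and Hspe1 encode Hsp60 and its lid Hsp10, the chaperonin of the mitochondrial matrix. The genes lie head to head on chromosome 1, Hspd1 (ENSMUSG00000025980) at 55077835 to 55088243 on the minus strand and Hspe1 (ENSMUSG00000073676) at 55088132 to 55091307 on the plus strand, and overlap by 112 bases. Hspd1 stood at 607, 523 and 258 CPM in P95H/+, against 481, 499.7 and 142 CPM in WT. Its log2 fold change of 0.36 (SE 0.51, adjusted p 1) was the only positive one of the 10 with 6 libraries, and in replicates 1 and 2 it was 0.24 (SE 0.10, adjusted p 0.300). By replicate number, which the labels do not state to pair libraries, the log2 ratio was above 0 each time, at 0.34, 0.07 and 0.86. The groups overlapped.

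Hspe1 stood at 122, 107 and 35.5 CPM in P95H/+, against 117, 116 and 64.9 CPM in WT. The genotypes lay together in replicates 1 and 2, with a log2 fold change of 0.0047 (SE 0.09), and apart in replicate 3, with a ratio of -0.87. With 6 libraries its log2 fold change was -0.11 (SE 0.46, adjusted p 1). In the replicate 3 libraries the partners therefore went opposite ways between genotypes, Hspd1 higher and Hspe1 lower in P95H/+. From 89 to 72 bases before the RefSeq start of Hspe1, inside the annotated span of Hspd1, lies a run of overlapping heat shock elements with 3 units (GAANNTTC continued by NNGAA, searched on both strands). Such an element was present in 0.466% of windows. It is the only 3-unit element among the 7 members matched in the RefSeq table and is shown in capitals on the plus strand of chr1:55088053-55088082.
Hspe1: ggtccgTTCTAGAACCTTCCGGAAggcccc
In the windows of Dnajb1 and Hspd1 neither a heat shock element nor the ER stress response element was matched by these letters, which says nothing about the factors.

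Levels of different genes were compared per kilobase of annotated exon. The mean level was highest for Hsp90ab1, at 742 ± 151 CPM per kb in P95H/+ and 801 ± 53.8 in WT (SD, n = 3 each). Hspa8 followed at 281 ± 64.8 CPM per kb in P95H/+ and 340 ± 12.9 in WT. Hspa5 (240 ± 72.2 and 260 ± 93.3) and Hsp90aa1 (235 ± 117 and 248 ± 87.5) came next in P95H/+ and WT. In P95H/+ the SDs of Hspa8, Hspa5 and Hsp90aa1 overlapped, but these include the fall of replicate 3 that the genes share. The order of genes within single libraries was not compared. Hspd1 was at 175 ± 69.1 CPM per kb in P95H/+ and 142 ± 76.2 in WT. At the low end stood Hsph1, at 16.1 ± 2.93 CPM per kb in P95H/+ and 24.3 ± 13.1 in WT, and Hspa1a, at 21.7 ± 9.52 and 55.3 ± 34.9. Hspa1b and Hspe1 exchanged places between the genotypes, at 50.1 ± 17.7 and 59.9 ± 31.4 CPM per kb in P95H/+ and 135 ± 87.3 and 67.5 ± 20.4 in WT. Their SDs overlapped in each genotype.

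The replicate 3 libraries treated the chaperones unequally. In P95H/+ the level of replicate 3 over the mean of replicates 1 and 2 was lowest for Hspe1 (0.31) and Hsp90aa1 (0.332), above 1 for Dnajb1 (1.15) and highest for Hspa1b (1.58) and Hspa1a (1.86). In WT it was lowest for Hspa1b (0.192), Hspa1a (0.202), Hspd1 (0.29) and Hsph1 (0.316) and near 1 for Hspa8 (0.947) and Hsp90ab1 (0.903). Transcript GC content was 58.95% for Hspa1a and 58.1% for Hspa1b and 44.9% to 52.4% for the other 8. Across the 10 genes, which are not independent replicates, GC content and the replicate 3 ratio had a Spearman rho of 0.782 in P95H/+ and -0.188 in WT. Above 55% GC, genes were generally higher in both replicate 3 libraries, with a median log2 difference of 0.67 in P95H/+ and 0.52 in WT. Hspa1a and Hspa1b were far lower in WT replicate 3 than in WT replicates 1 and 2. The part of GC content in the chaperone differences was not tested. With a GC correction of all 6 libraries the log2 fold changes of Hspa1a and Hspa1b were -1.44 and -1.49, with an adjusted p of 0.901 each.

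**Figure D3:**
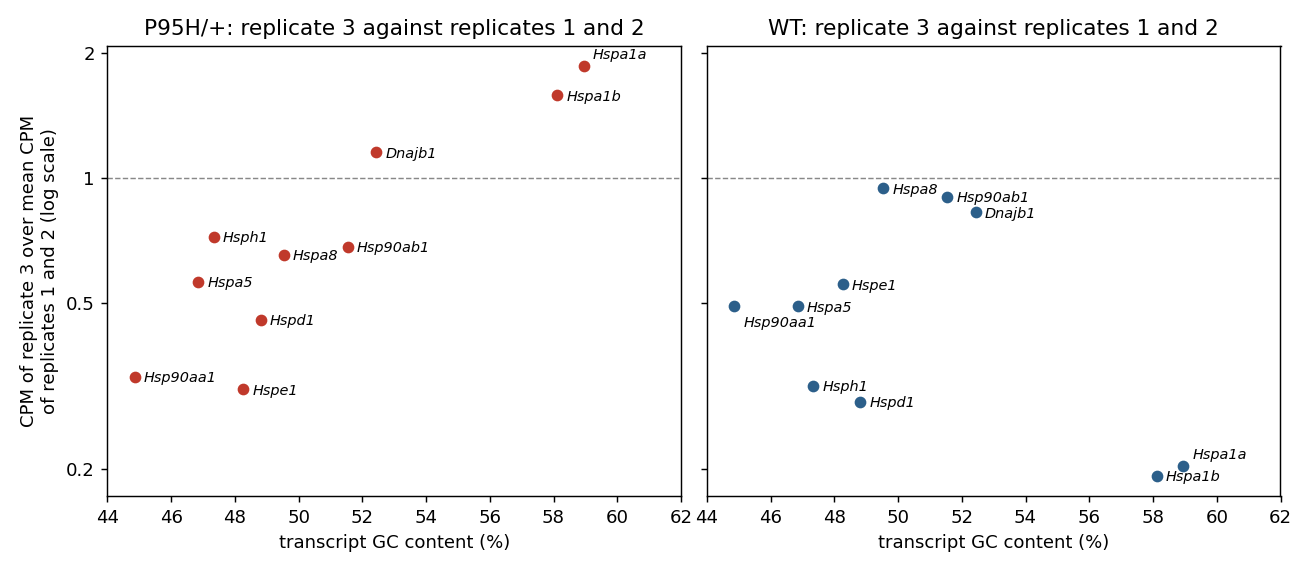
Level of each chaperone in replicate 3 relative to the mean of replicates 1 and 2 (log axis) against the GC content of its transcripts, for P95H/+ (left) and WT (right), with a dashed line at a ratio of 1. Hspa1a and Hspa1b lie at the top in P95H/+, at 1.86 and 1.58, and at the bottom in WT, at 0.202 and 0.192.

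Wider lists of chaperone and stress genes were set beside the 10 genes, and 0 members of any list passed with 6 libraries. Of 9 other Hsp70 and Hsp110 genes tested, 4 were lower and 5 higher in P95H/+ (median log2 fold change 0.07), with Hyou1, an ER exchange factor, at 596 ± 108 CPM in P95H/+ and 482 ± 105 CPM in WT (SD, n = 3 each). Hspa2, best known from germ cells, had a log2 fold change of 0.24 and Hspa9, the mitochondrial Hsp70, of 0.26. J-domain co-chaperones were split, with 12 lower and 15 higher of 27 and a median of 0.03, which turned to -0.03 (16 lower, 11 higher) under scaling to total counts alone. Their smallest p were for the Dnajb1 relatives Dnajb4 (-0.54), at 49.8 ± 16.9 CPM in P95H/+ and 75.9 ± 28.8 CPM in WT, and Dnajb13 (-0.28) and for Dnaja4 (-0.41).

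Hsp70 exchange factors and Hsp90 co-chaperones were mostly on the higher side, 19 of 23 with a median of 0.18, and 0 were called. Cdc37, which brings kinases to Hsp90, averaged 238 ± 3.38 CPM in P95H/+ and 193 ± 24 CPM in WT (log2 fold change 0.37), Fkbp4 at 376 ± 51.1 CPM in P95H/+ and 312 ± 27.3 CPM in WT (0.35), and Stub1, a ubiquitin ligase that works with Hsp70, had 0.29. Of 14 subunits of the cytosolic chaperonin TRiC and of prefoldin, 12 had positive values (9 with total counts alone), with a median of 0.11, among them Cct5 at 0.26 and Pfdn1 at 0.37, while Pfdn5 was at -0.43. ER chaperones and unfolded protein response genes had positive values for 20 of 25 (15 with total counts alone) and a median of 0.12. Herpud1, of ER-associated degradation, was lower in every P95H/+ library than in any WT library, at 111 ± 5.65 CPM in P95H/+ and 154 ± 11.1 CPM in WT (log2 fold change -0.39), as did Trib3, a pseudokinase induced by ER stress, at -0.69, while Asns, the asparagine synthetase gene, had 0.54. Mitochondrial chaperones and proteases had positive values for 12 of 15 and a median of 0.16, with Afg3l2 at 0.34, Clpb at 0.29 and Trap1, the mitochondrial Hsp90, at 0.29 and at 204 ± 4.69 CPM in P95H/+ and 176.1 ± 6.58 CPM in WT. These shares stand beside 46.9% of all genes with a negative value. Between the replicate 3 libraries alone, the log2 ratio was below 0 for 10 of 14 TRiC and prefoldin genes and 14 of 25 ER genes. The same held for 8 of 23 exchange factors and co-chaperones, 7 of 15 mitochondrial genes and 9803 of 17144 tested genes. Every P95H/+ library was below every WT library for 3 of the 25 ER genes and above for 0. For the 15 mitochondrial genes these counts were 0 and 3, and for the 23 exchange factors and co-chaperones 0 and 1. Over all genes the shares were 5.93% and 1.91%.

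The heat shock factor genes gave small differences. Hsf1 averaged 67.8 ± 21.6 CPM in P95H/+ and 59.3 ± 13.6 CPM in WT (log2 fold change 0.28, SE 0.29), Hsf2 had -0.14 and Hsbp1, which binds Hsf1, -0.04. Without P95H/+ replicate 3 the value of Hsf1 was -0.044 and that of Hsf2 0.16, so neither sign was stable. Under the GC correction the value of Hsbp1 turned to 0.04, and in replicates 1 and 2 it was 0.13. Transcript levels of Hsf1 do not show the activity of its protein.

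Other stress-inducible targets of Hsf1 were evenly split with 6 libraries, 10 lower and 10 higher of 20 with a median of -0.0024, which was 0.02 with the size factors of DESeq2 and -0.07 (12 lower, 8 higher) with total counts alone. In the comparison of replicates 1 and 2, Zfand2a and Hspb1 were called lower, 2 of 21, where 0.645% of all genes were. Zfand2a, an arsenite- and heat-inducible proteasome adaptor, stood at 40.8, 43.9 and 43.4 CPM in P95H/+, against 65.5, 68.0 and 61.1 CPM in WT. Of the 20 targets, 3 had every P95H/+ library below every WT library and 1 had every one above, against 5.93% and 1.91% of all genes. Zfand2a was among those below, and its replicate 3 libraries lay with those of their own genotype. The log2 fold change was -0.53 (SE 0.18, adjusted p 1) with 6 libraries, and in replicates 1 and 2 Zfand2a fell by 0.62 on the log2 scale (adjusted p 0.0163). Hspb1, which encodes Hsp27, was rare, at 0.369, 0.265 and 0.744 CPM in P95H/+, against 2.61, 3.41 and 0.119 CPM in WT. These levels rest on 8, 6 and 8 reads in P95H/+ and 60, 72 and 2 reads in WT. In replicates 1 and 2 it passed the filter on low counts only through WT, where it is high, so its call there (log2 fold change -3.19, adjusted p 0.00404) gives no support. Like Hspa1a, it was low in WT replicate 3. Cryab, another small heat shock protein, was also rare, at 1.06, 1.02 and 1.12 CPM in P95H/+ and 0.695, 0.521 and 0.416 CPM in WT. It was higher in every P95H/+ library, with a log2 fold change of 1.01 (adjusted p 1), which rests on these low levels. In the list of small heat shock proteins Hspb9 had 0.66. With 4 tested genes, 1 lower and 3 higher, that list had a median of 0.48.

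**Figure D4:**
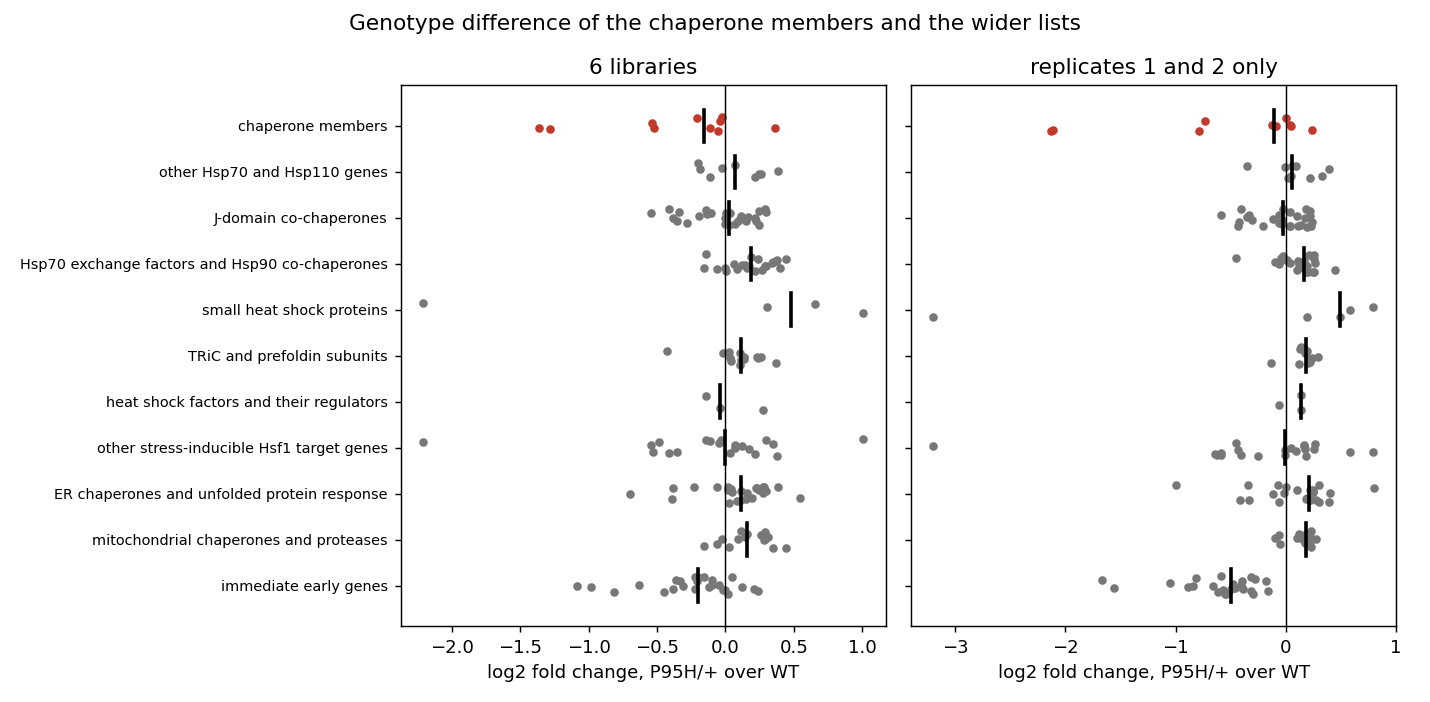
The log2 fold change (P95H/+ over WT) of each gene in the 10 chaperones (red) and the wider lists (grey), with 6 libraries (left) and with replicates 1 and 2 only (right), and a black bar at the median of each list. The chaperones spread from -1.36 to 0.36 on the left and from -2.13 to 0.24 on the right, and the immediate early genes all lie below 0 on the right.

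Immediate early genes, transcription factors and phosphatases switched on within minutes of a stimulus, moved beside Hspa1a, Hspa1b, Dnajb1 and Hsph1. Their summed level over 25 genes was 5518, 6996 and 9065 CPM in P95H/+ replicates 1, 2 and 3, against 8898, 8720 and 6927 CPM in WT, the same order of libraries within each number as for Hspa1a. With replicates 1 and 2 all 25 had negative log2 fold changes (median -0.49), where 50.4% of all genes did, and 5 were called lower, against 0.645% of all genes. These were the orphan receptors Nr4a1 (log2 fold change -1.67, adjusted p 1.09e-05) and Nr4a3 (-1.56), the AP-1 member Fosl2 (-0.84), the zinc finger factor Klf4 (-0.54) and the stress phosphatase subunit Ppp1r15a (-0.61). With 6 libraries 20 of 25 were below 0 with a median of -0.20, Nr4a1 at -1.08, Nr4a2 at -0.81 and Nr4a3 at -0.98, and 0 were called. The part of sorting or handling in either group of genes was not tested.

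The profile shared by Hspa1a, Hspa1b, Dnajb1 and Hsph1, their mean log2 CPM minus its own average, was -0.74, -0.32 and -0.18 in P95H/+ replicates 1, 2 and 3 and 1.06, 0.86 and -0.68 in WT. Of 9670 tested genes with a mean of at least 10 CPM, the 6 closest to it over the 6 libraries were Ahnak, Socs3, Maml2, Dntt, Plk2 and Gem, with root mean square differences of 0.239 to 0.322 on the log2 scale. The median of all these genes was 0.754, and Hspa1a, Hspa1b, Hsph1 and Dnajb1 themselves lay at 0.346, 0.331, 0.378 and 0.478. Ahnak, a large scaffold protein, stood at 158, 174.5 and 185 CPM in P95H/+, against 349.8, 301 and 141 CPM in WT. Socs3, a feedback inhibitor of cytokine signalling, stood at 11.1, 13.4 and 20.0 CPM in P95H/+, against 41.6, 27.4 and 15.6 CPM in WT. WT replicates 1 and 2 were highest for each of the 6 genes, which the choice by likeness favours. In replicates 1 and 2 the log2 fold changes were -0.94 for Ahnak, -1.46 for Socs3, -1.004 for Maml2, -1.24 for Dntt, -1.21 for Plk2 and -0.95 for Gem.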

How the data were processed

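RNA of 3 P95H/+ and 3 WT libraries was ribosome-depleted and sequenced as paired reads from a stranded kit, per the labels. The submitters' processing notes name, for build mm10, STAR 2.5.3a, Subread 1.5.1 with featureCounts, Picard 1.96, Trim Galore, cutadapt, limma and edgeR. Their roles and the strand setting of the counting are not given in the sources used here. The authors deposited raw counts for 26027 genes. The deposited CPM equalled count over library total within 5e-04, and those of the 15466 filtered genes count over filtered total. CPM in the text come from the counts. Genes that overlap others may share reads.

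The comparison of genotypes used edgeR 4.0.16 under R 4.3.3 (TMM, filterByExpr, robust quasi-likelihood F test, two-sided, Benjamini-Hochberg over all tested genes, threshold 0.05). All 10 chaperones passed the filter. SE follows from F. Alternatives were DESeq2 1.42.0, limma 3.58.1 voom, other scalings and filters, sex or replicate number as a term, a GC correction (spline with 4 degrees of freedom) and left-out libraries. The code was tested on simulated data.

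Same-numbered libraries deviated together across genes (r = 0.372, 0.348 and 0.613), over the 0.1 set for pairing. Crossed pairs of replicates 1 and 2 gave 0.463 and 0.386. Deviations were taken from group means in which replicate 3 stands apart in both genotypes, which makes these values positive without pairing. The check therefore cannot show that equal numbers are pairs, and the labels do not state it. Members and lists were chosen with earlier results of these data known. Named genes were the 10 members, genes of a list with an adjusted p under 0.05 in either comparison, otherwise the 3 with the smallest p per list, and the 6 closest profiles. Annotation, lengths and GC content came from GENCODE M21 (mm10), and sequences, matched for 7 of 10 members, from RefSeq (GRCm38.p6).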

Additional observations from a re-analysis of the deposited data

How the results depend on the processing

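The 12 other settings kept the log2 fold changes of Hspa1a, Hspa1b, Hspa8, Dnajb1 and Hsph1 negative and that of Hspd1 positive (11 settings for Hspa1a, which 1 merges with Hspa1b). The median of the 10 chaperones lay between -0.50 (sex in the model) and -0.079 (GC correction), against -0.16. The number of genes called, 0 in the report, was 8 with DESeq2, 1 with the GC correction and 144 with replicates 1 and 2 only, where 2 of the 10 chaperones were called. With the replicate number as a block 1 gene was called, with block and GC correction 11, and no chaperone call changed. Hsp90aa1 turned to 0.0027 with size factors of DESeq2, 0.0026 with DESeq2, 0.055 with the GC correction, 0.021 with block and GC correction and 0.048 with replicates 1 and 2. Hsp90ab1 turned to 0.043 (GC correction), 0.028 (block and GC correction) and 0.034 (replicates 1 and 2). Hspa5 turned to 0.060 (GC correction) and 0.097 (block and GC correction), Hspe1 to 0.0047 (replicates 1 and 2) and Hsbp1 to 0.043 (GC correction) and 0.13 (replicates 1 and 2). Klf4, at -0.0034, turned to 0.033 with size factors of DESeq2 and with DESeq2, 0.026 with voom, 0.032 with sex, 0.018 with the block and 0.063 with block and GC correction. With 1 library left out, from all 6 or from replicates 1 and 2, genes called ranged from 0 to 830 and chaperones called from 0 to 3. The median of the 10 chaperones then ranged from -0.39 (without P95H/+ replicate 1) to 0.03 (without P95H/+ replicate 3), and Hsph1 from -0.96 to -0.14. Over these fits the log2 fold change ranged from -0.33 to 0.17 for Hspa5, -0.31 to 0.33 for Hsp90aa1, -0.15 to 0.10 for Hsp90ab1, -0.028 (without WT replicate 3) to 0.65 for Hspd1, -0.43 to 0.25 for Hspe1, -0.044 to 0.47 for Hsf1, -0.36 to 0.16 for Hsf2, -0.25 to 0.25 for Hsbp1 and -0.28 to 0.22 for Klf4. For these reversals the cause was not tested. Counting error is small for the chaperones, whose lowest count was 382 in P95H/+ replicate 3.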
